A study of Macaca mulatta with 24 samples.

Results

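Histone genes were followed in RNA from cultured airway epithelium of rhesus macaques exposed to wood smoke. The genes were taken from the rows of the deposited table whose symbol begins with H1- and a digit, or with H2AC, H2BC, H3C or H4C and a digit, which are the current names of linker histone genes and of clustered core histone genes. The 20 genes described here, of 35432 rows in the table, comprise 8 in the H1 family, 2 in H2A, 3 in H2B, 1 in H3 and 6 in H4. The rule reads gene names only, but it was chosen with earlier results of these data known.

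Core histones H2A, H2B, H3 and H4 form the spool around which DNA is wound, and the linker histone H1 binds where the DNA enters and leaves it. Most of these genes lie in clusters and are switched on when cells copy their DNA, and their messages then end in a stem-loop bound by the protein SLBP instead of a poly-A tail. Libraries made from poly-A selected RNA therefore hold only those histone messages that carry a tail, and tailed forms of some clustered genes are known from differentiated or resting cells.

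Epithelial cells from the trachea and bronchi of 4 adult female animals (S1 to S4) were differentiated at an air–liquid interface in medium with retinoic acid, and then received diluted whole wood smoke or filtered air for 6 hours a day. Smoke and air cultures were collected after 1 day, after 5 days, and after 5 days plus 7 further days without exposure (recovery), so there were 6 groups of 4 libraries, with 1 library of each animal in each group. The animals were 1128 days old (S4), 2238 days old (S3), 2930 days old (S2) and 5463 days old (S1). These are primary cells in culture, and each group holds 1 library per animal.

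Values are normalized counts, that is, estimated read counts per gene divided by a library factor. They are not divided by gene length, so levels of different genes are not on one scale. Sums over genes, and the part of a gene in a sum, describe counts only. Library totals lay between 11837168 and 15200096, and between 12927 and 13255 genes reached 10 in each. The epithelial markers EPCAM, CDH1 and KRT18 summed to between 6314 and 9483 per library over all groups, while the endothelial markers summed to 70.3 to 262, the fibroblast markers to 378 to 731 and the leukocyte markers to 196 to 934. Of the leukocyte markers only CD68 reached 10 in at least 4 libraries, and PTPRC, CD3E and ITGAM did not. Nor did the fibroblast markers DCN and LUM or the endothelial marker CDH5. One library was unlike the rest: S1 in air at 5 days had a median pairwise correlation of 0.860, and the remaining 23 had 0.931 to 0.956. In that library CDH1 was 298 against 2064 to 3088 in the other 3 libraries of its group, and TP63, a basal cell factor, was 84.8 against 391 to 495, while KRT5, a keratin of basal cells, was the highest of its group at 46084 against 23738 to 31595. SLBP was 94.3 in it, against 205 to 224. These genes were picked after their values were seen. Most results that rest on this library are given with and without it. Those on replication, mitosis and chaperone genes at 5 days are given only with it. In bulk RNA, fewer cells holding a message and less of it per cell cannot be told apart.

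Of the 20 genes, 7 reached a value of 10 in at least 4 libraries and were tested. The H2B genes H2BC5 and H2BC18, the H2A gene H2AC20, the H4 gene H4C8 and the linker gene H1-2 reached 10 in all 24 libraries. H4C12 did so in 11 libraries and H1-4 in 4. Just inside the threshold, H1-4 had values of 13.6, 13.8 and 15.2 in 1-day smoke libraries and 17.8 in 1 air library at 5 days. It passed largely through the group where it was high, so its difference in that group is partly built in. Just outside, H1-3 and H1-5 each reached 10 in 2 libraries, with highest values of 13.3 and 12.4.

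The other 13 genes were at or near 0. Their values summed to between 0.982 and 30.9 per library, 11 of them never reached 10, and the testis linker gene H1-6 was listed at 0 in all 24 libraries. The only H3 row was among them, with a highest value of 3.38. That row is labelled H3C1 in the table, and the reference names its gene ID H3C3. H4C12 was split by animal rather than by exposure: it was listed at 0 in every library of S1 and S3, and at 22.3 to 49.997 in the libraries of S2 and S4, except for the smoke recovery library of S2, which was at 0. The H4 genes encode the same protein from near-identical sequences, and RSEM divides ambiguous reads between such copies, so a value for any single clustered gene is uncertain.

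In the gene order of the RefSeq assembly T2T-MMU8v2.0, H2BC5 was next to H1-4, and H1-4 was next to H2AC6, with 14 clustered histone genes among the 20 nearest neighbours of H2BC5. H2AC20 was next to H2AC21, whose highest value was 1.56. The linker genes H1-7 and H1-8 each had 0 clustered histone genes among their 20 neighbours, so both share the naming prefix and not the cluster.

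**Figure D1:**
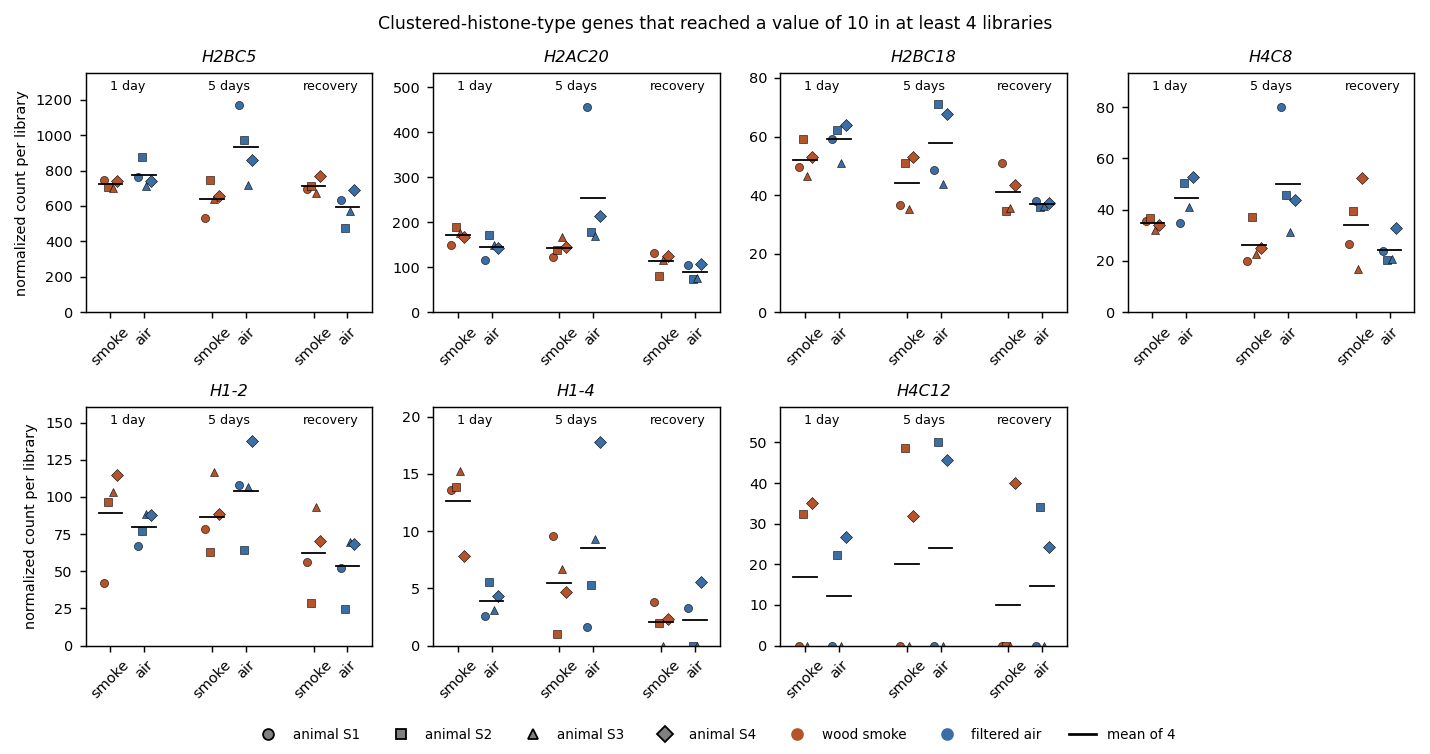
Normalized counts per library (vertical axis, from 0, with a different range in each panel) of the 7 genes tested, in smoke and air libraries at 1 day, 5 days and recovery; symbols mark animals S1 to S4 and bars the mean of 4. After 5 days the smoke values of H2AC20 (122 to 167) lie below all air values (169 to 456), and H4C12 is at 0 in all libraries of S1 and S3.

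The first comparison asked what a single smoke exposure did to these genes. Differences are given as log2 fold changes of smoke over air with their standard error, from limma's moderated test over all 14062 genes that passed the minimum. A gene counts as changed at a Benjamini-Hochberg adjusted p under 0.05. After 1 day, 0 of the 7 genes passed, where 0.0284% of all genes tested did. At an unadjusted p under 0.05 there was 1, H1-4, and with animal as a block in the limma fit there were 0 after adjustment, where 0.0782% of all genes passed, and 1 before it. Such an unadjusted p was found for 265 of all 14062 genes without a block and 634 with it. The 7 log2 fold changes had a median of 0.07 against 0.00 over all genes tested, with 4 above 0 and 3 below it.

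H1-4, a clustered linker histone gene, had 13.6, 13.8, 15.2 and 7.85 normalized counts in 1-day smoke, against 2.61, 5.56, 3.12 and 4.36 in air. The groups did not overlap, as for 1.51% of genes in this direction, and the log2 fold change of 1.47 ± 0.70 did not pass (adjusted p = 1.0).

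No core histone gene passed after 1 day. H2BC5 had 745, 708, 700 and 739 in smoke against 764, 875, 713 and 741 in air, a log2 fold change of −0.09 (95% interval −0.37 to 0.19). H2AC20 had 150, 190, 177 and 168 in smoke against 117, 172, 150 and 143 in air, higher in 4 of 4 animals (0.24, interval −0.26 to 0.75), as were 16.2% of all genes. These intervals do not show the values to be equal. H2BC18 had 49.5, 59.1, 46.5 and 52.9 in smoke against 59.0, 62.2, 50.9 and 63.8 in air, lower in 4 of 4 animals (−0.18 ± 0.19), as were 15.2% of all genes. For H4C8 the smoke values were 35.7, 36.7, 32.1 and 33.9, against 34.9, 50.3, 40.9 and 52.8 in air (−0.34 ± 0.31). H1-2, the clustered linker gene with values in all libraries, had 42.1, 96.7, 103 and 114 in smoke and 67.1, 77.0, 88.3 and 87.8 in air, and S1 moved against the other 3 animals.

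After 5 days of daily exposure all 7 log2 fold changes were below 0, with a median of −0.44 against 0.01 over all genes tested. Under limma without a block, 0 of the 7 passed, where 0.0711% of all genes did, and 3 had an unadjusted p under 0.05 (H2BC5, H2AC20 and H4C8). With animal as a block 1 passed, H2BC5, where 1.69% of all genes did.

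H2BC5, an H2B gene, had 532, 744, 637 and 654 normalized counts in the 5-day smoke cultures of S1 to S4, against 1171, 974, 718 and 862 in air. It was lower in 4 of 4 animals, with a small overlap between the groups: the highest smoke value (S2) exceeded the lowest air value (S3). Smoke over air was −0.52 ± 0.13 on the log2 scale (adjusted p = 0.176), and it fell with animal as a block (adjusted p = 0.0463). Leaving S1 air at 5 days out of the blocked fit gave −0.40 (adjusted p = 0.0419, where 6.26% of all genes passed). With the block and without an animal, the difference ranged from −0.32 without S1 to −0.64 without S3, and the adjusted p was 0.108 without S1, 0.109 without S2, 0.171 without S3 and 0.187 without S4.

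H2AC20 had 122, 139, 167 and 146 normalized counts in 5-day smoke, against 456, 177, 169 and 213 in air. The groups did not overlap, as for 1.65% of genes in this direction, but in S3 the gap was only 0.02 on the log2 scale. Smoke over air was −0.70 ± 0.24 on the log2 scale (adjusted p = 0.359), and −0.38 ± 0.18 when S1 air at 5 days was left out (adjusted p = 0.501).

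H4C8 was likewise lower in each animal, with 20.1, 37.2, 22.8 and 24.9 in 5-day smoke against 80.1, 45.7, 31.3 and 43.6 in air (−0.87 ± 0.31, adjusted p = 0.369). S1 again had the widest gap, and without its air library the difference was −0.62 ± 0.30 (adjusted p = 0.509). H2BC18 had 36.7, 51.0, 35.2 and 53.1 in smoke against 48.5, 71.0, 43.7 and 67.7 in air. Its 4 animals moved by similar amounts, between −0.47 and −0.30, and S1 did not stand out (−0.38 ± 0.19, adjusted p = 0.572). Being lower in 4 of 4 animals was met by 9.91% of all genes tested.

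The linker genes varied among animals after 5 days. H1-2 had 78.6, 62.6, 116 and 88.6 in smoke against 108, 64.4, 107 and 138 in air, lower in 3 of 4 animals (−0.25 ± 0.37). H1-4 was at 1.01 to 9.60 in smoke and 1.59 to 17.8 in air, with overlapping groups. H4C12 was at 0 in S1 and S3 under both exposures, and in S2 and S4 at 48.5 and 31.8 in smoke against 49.997 and 45.7 in air.

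**Figure D2:**
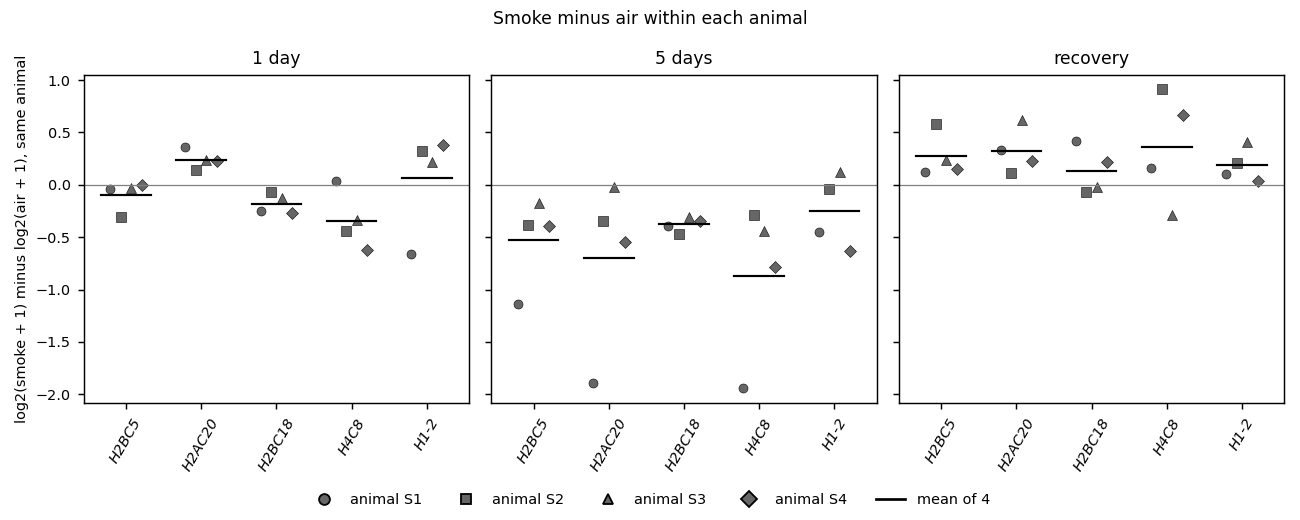
Difference between smoke and air cultures of the same animal (vertical axis, log2(smoke + 1) minus log2(air + 1)) for the 5 genes with values of 10 or more in all libraries, at each time; symbols mark animals and bars the mean of 4. At 5 days S1 is at −1.14 for H2BC5, −1.89 for H2AC20 and −1.94 for H4C8, below the other 3 animals, and at recovery all 4 animals are above 0 for H2BC5, H2AC20 and H1-2.

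After recovery most of the genes were on the other side of 0 from 5 days. Of the 7 genes, 6 were above 0, with a median log2 fold change of 0.19 against 0.01 for all genes tested. Without a block 0 passed in limma, where 0.242% of all genes did, and 0 did so at an unadjusted p under 0.05. In the blocked fit 0 passed, where 3.41% of all genes did, and 1 had an unadjusted p under 0.05 (H2BC5), as did 2464 of all 14062 genes. Leaving S1 air at 5 days, a library of neither group, out of the blocked fit also gave 0, where 18.8% of all genes passed.

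H2BC5 had 695, 715, 676 and 768 in smoke recovery cultures against 636, 478, 573 and 692 in air, higher in 4 of 4 animals with overlapping groups (0.27 ± 0.13, adjusted p = 0.607, and 0.283 with the block). H2AC20 had 132, 80.6, 116 and 125 in smoke against 105, 74.3, 75.2 and 106 in air, also higher in each animal (0.32 ± 0.24, adjusted p = 0.838). H1-2 was higher in each animal as well, with 56.1, 28.5, 93.0 and 69.99 in smoke against 52.2, 24.6, 69.8 and 68.0 in air (0.19 ± 0.37). These 3 genes shared a direction that 18.9% of all genes showed in 4 of 4 animals. H4C8 had 26.7, 39.3, 16.9 and 52.5 in smoke against 23.8, 20.4, 20.8 and 32.7 in air, and S3 went the other way. H2BC18 had 51.0, 34.4, 35.7 and 43.5 in smoke against 37.95, 36.0, 36.2 and 37.3 in air, with 2 animals higher and 2 lower. H1-4 stayed at 3.83 or less in smoke and 5.58 or less in air.

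Whether the smoke effect itself changed between times was tested as a difference of differences. From 5 days to recovery, 0 of the 7 genes passed without a block in limma, where 0.348% of all genes did, and 3 had an unadjusted p under 0.05. Of all 14062 genes, 1608 had such a p. With the block 1 passed, H2BC5, where 3.56% of all genes did. Its smoke effect was 0.80 ± 0.19 higher at recovery than at 5 days (adjusted p = 0.0794, and 0.0221 with the block). Leaving S1 air at 5 days out of the blocked fit gave 0.67 (adjusted p = 0.00813, where 11.3% of all genes passed). With the block and without an animal, the adjusted p was 0.0176 without S1, 0.111 without S2, 0.0920 without S3 and 0.169 without S4. The values for H2AC20 and H4C8 were 1.02 ± 0.34 and 1.23 ± 0.44 and did not pass in either fit (adjusted p = 0.238 and 0.268, and 0.0995 and 0.0780 with the block).

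From 1 day to 5 days 0 of the 7 passed without a block or with it in limma, where 0.0142% and 0.0427% of all genes did, and 2 genes had an unadjusted p under 0.05 in each fit. Of all 14062 genes, 513 and 1311 had such a p. Between recovery and 1 day, a contrast added after the data were seen, 0 of the 7 passed without a block, where 0.00711% of all genes did, 0 passed with it, where 1.22% did, and 0 had an unadjusted p under 0.05 in either fit.

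Air cultures also changed over time. Between 5 days and the end of recovery, 4 of the 7 genes fell in air, H2AC20, H2BC5, H2BC18 and H4C8, where 11.3% of all genes tested changed and 5.47% fell. With animal as a block 5 fell, H1-2 in addition, where 28.4% of all genes passed, and that fit without S1 air at 5 days also called 5, where 27.1% passed. All 7 values were below 0, with a median of −0.95 against 0.02 over all genes. These air libraries at 5 days and recovery are the same ones that smoke was compared with, so these values and the smoke effects are not independent.

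H2AC20 had 105, 74.3, 75.2 and 106 normalized counts in air at recovery, against 456, 177, 169 and 213 in air at 5 days. The groups did not overlap, and it fell by 1.38 ± 0.24 on the log2 scale (adjusted p = 0.00147). Leaving out S1 at 5 days, it fell by 1.05 ± 0.18 (adjusted p = 0.00108, where 8.72% of all genes passed). H2BC5 had 636, 478, 573 and 692 at recovery against 1171, 974, 718 and 862 at 5 days in air, again without overlap, as for 7.51% of genes that were lower. It fell by 0.64 ± 0.13 (adjusted p = 0.00614), and without S1 at 5 days by 0.52 ± 0.12 (adjusted p = 0.0117). Without all libraries of S2 the difference was −0.51 and missed the threshold (adjusted p = 0.0715, and 0.0311 with the block).

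The other changes in air were less firm. H2BC18 had 37.95, 36.0, 36.2 and 37.3 at recovery against 48.5, 71.0, 43.7 and 67.7 at 5 days, without overlap, and fell by 0.60 ± 0.19 (adjusted p = 0.0461). H4C8 had 23.8, 20.4, 20.8 and 32.7 at recovery against 80.1, 45.7, 31.3 and 43.6 at 5 days, with S4 at recovery above S3 at 5 days, and fell by 0.95 ± 0.31 (adjusted p = 0.0491). Both sat at the edge of the threshold. Leaving out S1 at 5 days, H4C8 was at −0.70 ± 0.30 (adjusted p = 0.162, and 0.0573 with the block), and H2BC18 was at −0.68 (adjusted p = 0.0359).

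The linker gene H1-2 had 52.2, 24.6, 69.8 and 68.0 in air at recovery against 108, 64.4, 107 and 138 at 5 days, lower in each animal, as were 19.7% of all genes (−1.0001 ± 0.37, adjusted p = 0.0808, and 0.0114 with the block). With the block, it was not called without S4 (adjusted p = 0.0693).

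In smoke cultures over the same interval 0 of the 7 genes passed without a block in limma, where 0.512% of all genes did, 0 passed with the block, where 8.06% did, and 0 had an unadjusted p under 0.05 in either fit. H2BC5 was 0.16 ± 0.13 and H2AC20 −0.35 ± 0.24 between 5 days and recovery in smoke. With the block and without S1, H2AC20 was called in smoke over this interval, as 1 of the 7. It was lower at recovery in S2, S3 and S4. Of all 14062 genes, 1584 were called higher and 1556 lower in that fit. Between 1 and 5 days, 0 of the 7 passed in air in either fit, where 3.98% and 19.4% of all genes passed, and 1 gene had an unadjusted p under 0.05 in each (H2AC20, 0.69 ± 0.24, adjusted p = 0.0965). Of all 14062 genes, 3503 and 5280 had such a p. Leaving out S1 air at 5 days, H2AC20 was at 0.36 ± 0.18 (adjusted p = 0.296), and 0 genes had an unadjusted p under 0.05 in either fit. In smoke 0 passed without a block, where 0.284% did, 0 passed with it, where 3.48% did, and 0 had an unadjusted p under 0.05 in either fit.

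**Figure D3:**
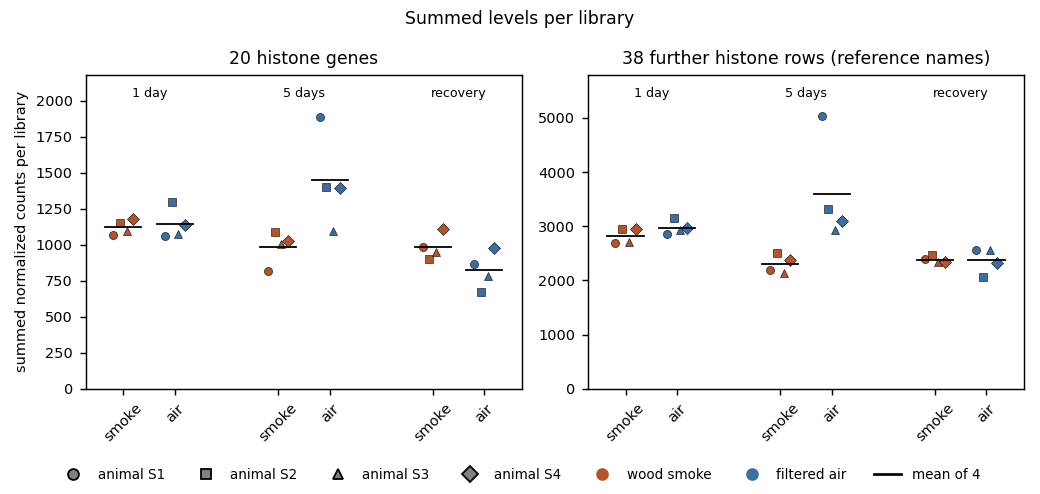
Summed normalized counts per library (vertical axis, from 0) of the 20 histone genes and of 38 further rows that the reference names as histones of the same families, in smoke and air at each time; symbols mark animals and bars the mean of 4. S1 air at 5 days is the highest point for the 20 genes (1887) and for the 38 further rows (5032), and at 5 days all 4 smoke sums of the 20 genes lie below the air sums. Of the 5032, 2819 came from the linker gene H1-10 alone.

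The summed level is described without a test. The 20 genes summed to 1122 ± 51.6 in smoke and 1140 ± 108 in air after 1 day (SD, n = 4 each). After 5 days the sums were 984 ± 116 in smoke and 1446 ± 326 in air, and all 4 smoke sums lay below the lowest air sum of 1098. The mean log2 ratio of smoke over air within animals was −0.536 at 5 days, and −0.313 without S1. At recovery they were 985 ± 88.3 in smoke and 823 ± 128 in air, with overlapping ranges. Most of each sum came from H2BC5, which averaged 642 in smoke and 931 in air at 5 days, and 713 and 595 at recovery.

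Many histone genes carry older names or no name in the table, and the naming rule leaves them out. The reference table names 38 further rows with the same prefixes, 23 of them with no symbol in the deposited table and 15 with another one, and 15 of the 38 reached the minimum. These rows were looked at after the data were seen. They include H2AC6, H2BC12, H2BC11, H4C14 and the linker gene H1-10, which the table lists as H1FX. Their sums were 2302 ± 169 in smoke and 3596 ± 969 in air after 5 days, and 2382 ± 65.0 in smoke and 2370 ± 234 in air at recovery. Much of these sums came from H1-10. It averaged 936 ± 93.7 in smoke and 1488 ± 889 in air after 5 days, and 815 ± 103 in smoke and 1072 ± 97.8 in air at recovery.

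After 1 day 0 of these 15 passed in limma in either fit, and 2 had an unadjusted p under 0.05 without a block and 3 with it, as did 265 and 634 of all 14062 genes. The H4 gene H4C14 had 75.9, 47.3, 62.1 and 57.7 normalized counts in 1-day smoke, against 129.6, 101, 109.8 and 125 in air, lower without overlap (−0.94 ± 0.20, adjusted p = 0.304, and 0.0897 with the block). Leaving S1 air at 5 days out of the blocked fit, it fell (adjusted p = 0.00874), where 54 of all genes were called higher and 81 lower. H1-10 went the other way, with 1219, 1409, 1235 and 1413 in 1-day smoke against 1077, 1137, 1123 and 1213 in air, also without overlap, as for 1.51% of genes in this direction (0.21 ± 0.22, adjusted p = 1.0).

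After 5 days 12 of these 15 were below 0 in smoke, with a median log2 fold change of −0.47. Without a block 0 passed in limma, and 7 had an unadjusted p under 0.05, each lower in smoke. Such a p was found for 1306 of all 14062 genes. The number of the 15 that passed with the block is not given. H2AC6, an H2A gene, was already lower in 1-day smoke, at 726, 868, 762 and 765 against 938, 1102, 966 and 899 in air, without overlap, as for 2.59% of genes in this direction. It had 508, 983, 634 and 644 normalized counts in 5-day smoke, against 818, 1445, 1050 and 1119 in air. It was lower in each animal by 0.56 to 0.79 on the log2 scale, S1 included (−0.69 ± 0.18, adjusted p = 0.169, and 0.00792 with the block, where 1.69% of all genes passed). Leaving out S1 air at 5 days, it fell without the block too (by 0.83, adjusted p = 0.0371), and with it by 0.78 (adjusted p = 0.000583) and H4C14 by 0.86 (adjusted p = 0.0115). Over all 14062 genes, leaving out that library gave 23 higher and 30 lower without the block, and 6.26% passed with it.

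At recovery 11 of the 15 were above 0, with a median of 0.28, and 0 passed in limma in either fit. Without a block 1 had an unadjusted p under 0.05, as did 1197 of all 14062 genes. H1-10 was among the 4 below 0, with 895, 671, 884 and 811 normalized counts in smoke against 1129.6, 929, 1139.7 and 1089.7 in air, lower in each animal without overlap, as for 4.37% of genes (−0.40 ± 0.22, adjusted p = 0.668, and 0.315 with the block). Leaving out S1 air at 5 days, where H1-10 was at 2819, it fell in both fits (adjusted p = 0.0328, and 0.00285 with the block). Over all 14062 genes, leaving out that library, which is in neither recovery group, gave 131 higher and 221 lower without a block. With the block 18.8% of all genes passed, against 3.41% when it was kept. The smoke effect on H2AC6 was 0.97 ± 0.25 higher at recovery than at 5 days (adjusted p = 0.0991, and 0.00394 with the block), and that on H2BC9 was 2.54 ± 0.64 higher (adjusted p = 0.0935, and 0.0260 with the block). In air, 3 of the 15 fell between 5 days and recovery without a block (H2BC9, H2BC12 and H2BC8), where 5.47% of all genes fell, and 9 fell with it, where 14.1% did. Leaving out S1 at 5 days, H2BC8 was not called without the block (adjusted p = 0.0791). H4C11 was at 260 in S1 air at 5 days and 30.8 to 58.5 in the other 3 air libraries.

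Genes of the same biology were taken from lists of textbook members. Histone messages are cut and protected by a set of factors, among them SLBP and NPAT, an activator of histone transcription. Of 17 such genes tested, 0 passed for smoke against air at any time in either limma fit, and 1, 2 and 1 had an unadjusted p under 0.05 at 1 day, 5 days and recovery. Without a block, such a p was found for 265, 1306 and 1197 of all 14062 genes at these times. SLBP was 0.39 ± 0.19 after 5 days (adjusted p = 0.533), and 0.10 ± 0.10 when S1 air at 5 days was left out (adjusted p = 0.835). The polyadenylation factor CSTF2 was 0.32 ± 0.13 (adjusted p = 0.438). At 1 day and at recovery the smallest p belonged to UPF1, a helicase of message decay that also acts on histone messages (−0.47 ± 0.13 and −0.31 ± 0.13, adjusted p = 1.0 and 0.480).

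In air between 5 days and recovery, where 11.3% of all genes passed without a block, this list was mixed. UPF1 (0.66 ± 0.13, adjusted p = 0.00365) and the uridylyltransferase gene TUT7 (0.60 ± 0.18, adjusted p = 0.0383) rose, and the scaffold gene SYMPK (−0.50 ± 0.12, adjusted p = 0.0130) and SRRT (−0.54 ± 0.14, adjusted p = 0.0187) fell. With the block 7 rose and 2 fell, where 28.4% of all genes passed, SLBP among those that rose (0.55 ± 0.18, adjusted p = 0.0309). Leaving out S1 air at 5 days, the blocked fit called 4 higher and 3 lower, where 27.1% of all genes passed, and SLBP was not among them (0.25 ± 0.09, adjusted p = 0.0548). Without that library and without a block, TUT7 was at 0.35 ± 0.13 and not called (adjusted p = 0.0964).

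Replacement histones are made outside DNA replication from tailed messages. Of 9 tested, 0 passed in smoke without a block in limma at any time, and 1, 0 and 1 had an unadjusted p under 0.05 at the 3 times. At recovery H3-3B, a gene for the replacement histone H3.3, had 5641, 6131, 6325 and 6009 normalized counts in smoke against 7564, 7360, 8394 and 7161 in air. The groups did not overlap, as for 4.37% of genes in this direction, and the log2 fold change was −0.34 ± 0.08 (adjusted p = 0.0994, and 0.0112 with the block, where 3.41% of all genes passed). In air it rose between 5 days and recovery (0.32 ± 0.08, adjusted p = 0.0147). The replacement gene H2AJ fell in air over that interval (−0.65 ± 0.21, adjusted p = 0.0476), and was at −0.33 ± 0.12 without S1 air at 5 days (adjusted p = 0.0998).

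Histone chaperones carry new histones to DNA. Of 18 tested, 0 passed for smoke without a block in limma, and 0, 4 and 0 had an unadjusted p under 0.05 at the 3 times. At 5 days such a p was found for 1306 of all 14062 genes. With the block 2 rose after 5 days, where 1.69% of all genes passed. CHAF1A, a subunit of the replication-coupled assembly factor, had 215, 91.7, 174 and 175 in smoke against 91.7, 68.4, 64.1 and 102 in air (0.96 ± 0.25, adjusted p = 0.188, and 0.00776 with the block). RBBP7, a histone-binding protein, was 0.29 with the block (adjusted p = 0.0340). Neither gene is given without S1 air at 5 days.

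Genes of DNA replication and mitosis were mostly above 0 at 5 days, where the 7 histone genes were below it. In smoke 31 of 33 replication genes were above 0 (median log2 fold change 0.38) and 19 of 19 mitosis genes (median 0.75), while the median over all genes was 0.01. In limma 0 of either list passed without a block or with it, and 7 and 5 had an unadjusted p under 0.05 without it. Of all 14062 genes, 1306 had such a p without a block. The proliferation marker MKI67 had 410, 59.8, 167 and 179 in 5-day smoke against 59.7, 31.5, 95.03 and 56.5 in air, higher in 4 of 4 animals, as were 9.54% of all genes (1.53 ± 0.56, adjusted p = 0.390, and 0.0540 with the block). The ribonucleotide reductase gene RRM1 was 0.53 ± 0.15 (adjusted p = 0.204) and the helicase gene GINS3 0.70 ± 0.20 (adjusted p = 0.237). These 5-day values include S1 air at 5 days and are not given without it, and the gap in MKI67 was widest in S1.

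At recovery 18 of 19 mitosis genes were below 0 in smoke (median −0.60) and 19 of 33 replication genes (median −0.11). Without a block 0 of either list passed in limma, and 5 and 0 had an unadjusted p under 0.05. MKI67 had 170, 58.9, 36.8 and 21.8 in smoke recovery cultures against 257, 168, 164 and 213 in air (−1.86 ± 0.56, adjusted p = 0.220). It fell with the block (adjusted p = 0.0124), as did CENPF, a kinetochore protein gene (−1.08 ± 0.41, adjusted p = 0.393, and 0.0454 with the block). Of 10 cell cycle exit genes 1 passed with the block, CDKN1B, an inhibitor of cyclin-dependent kinases, which rose (0.40 ± 0.10, adjusted p = 0.119, and 0.0173 with the block). Of all genes, 3.41% passed with the block.

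Markers of cell types moved beside these results. At recovery the 4 basal cell markers found in the table summed to 13752 to 31066 in smoke against 39440 to 49480 in air, and 1 of the 4 passed, KRT5 (−1.22 ± 0.22, adjusted p = 0.0173), or 2 with the block. Of all genes, 0.242% passed without a block and 3.41% with it. The 5 ciliated cell markers summed to 7451 to 21762 in smoke and 6552 to 15653 in air, and the 5 secretory markers to 196 to 61483 and 133 to 48311, with 0 called by limma in either fit and 0 with an unadjusted p under 0.05 without a block. In air between 5 days and recovery, the interval in which 4 of the 7 histone genes fell, 2 of the 4 basal markers rose without a block, ITGA6 (1.62 ± 0.43, adjusted p = 0.0211) and TP63 (1.09 ± 0.35, adjusted p = 0.0466), and 3 rose with it. Of all genes, 11.3% passed there without a block and 28.4% with it. Leaving out S1 air at 5 days, 0 of the 4 basal markers passed without a block, where 8.72% of all genes did. All 4 had an unadjusted p under 0.05 there, as did 3142 of 14062 genes. With the block 4 rose, where 27.1% of all genes passed. After 5 days the basal sums were 27097 to 32963 in smoke and 25626 to 48263 in air. The part of these cell types, and of proliferation, in the histone values was not tested.

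**Figure D4:**
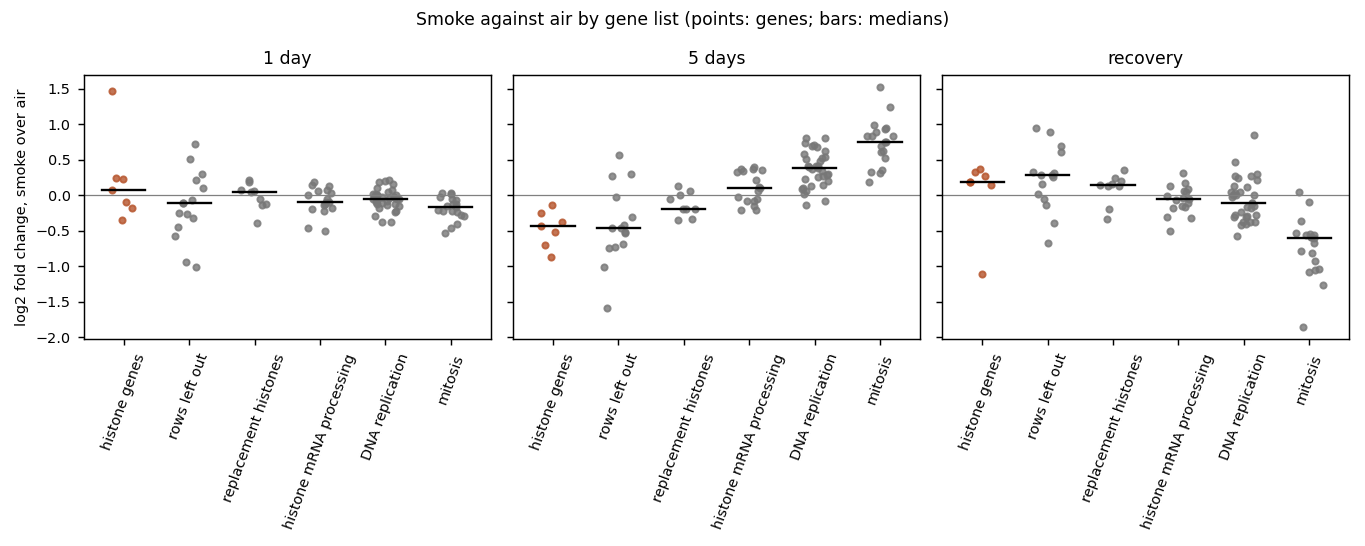
Log2 fold changes of smoke over air (vertical axis) from the limma fit without a block, at 1 day, 5 days and recovery, for the 7 tested histone genes (histone genes), the 15 further histone rows (rows left out), and lists of related genes; points are genes and bars medians. At 5 days the 7 histone genes are all below 0 and the 19 mitosis genes all above 0, and at recovery 18 of the 19 mitosis genes are below 0.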

How the data were processed

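RNA from 24 cultures was poly-A selected before library preparation, per the labels. Per the submitters' processing notes, the tools were FastQC and Trim Galore, with RSEM and Bowtie2, and no versions are used here. For the build, annotation, strand setting and normalizing tool, the answer is not given in the sources used here, and no positions appear. The authors deposited a normalized signal for each gene in each library, here called normalized counts. The values are not whole, and each library had the same median ratio, 1.01, to the gene-wise geometric mean, so tests for whole counts were not used. Depth in reads is unknown, and precision is given as the spread between animals. A gene's reads and those of an overlapping antisense gene may not be told apart.

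Values were analysed as log2(value + 1), so fold changes of low genes are understated. Genes reaching 10 in 4 or more libraries were fitted with limma 3.58.1 in R 4.3.3 as 6 group means over all 24 libraries, with trended variances, no block, two-sided tests and Benjamini-Hochberg adjustment over 14062 genes. Of the 10 contrasts, 9 were planned and 1 was added after seeing the data. Animal was the same by label in all groups. Within an animal, 60 pairs of libraries had correlated deviations from their group means (0.303 to 0.804, median 0.612). For 180 pairs of different animals the correlations were mostly negative (−0.443 to 0.0149, median −0.189). Centring each group on its mean pushes these toward negative values, so they are not a separate comparison. Because the animals were shared, an additive block for animal is printed where it changes the call of a named gene.

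The genes and lists were chosen with earlier results of these data known. Of the 21 genes that the naming rule selects, 1 is not reported here, though it stayed in the fit and the adjustment. All described genes reaching the minimum were accounted for. The rule gave values in every library for genes called in any contrast with or without the block, and otherwise for the 2 with the smallest p in each smoke contrast. From each list it took up to 4 genes called in a smoke contrast, otherwise the 2 with the smallest p, and some of these are given by count only. Library values of the other tested genes, the further histone rows, and list genes named for air over time were chosen after their values were seen. Of the list genes, 33 of 33 replication, 19 of 20 mitosis, 18 of 18 chaperone, 17 of 18 message processing, 9 of 10 replacement and 10 of 11 cell cycle exit genes were matched, and KRT8, KRT14, KRT15 and CAPS had no match among the markers. Gene order came from RefSeq by symbol.

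On simulated data of 14062 genes made for smoke against air at 5 days, with 200 changed, the fit recovered 100% of changes of log2 2 and 85% of log2 1 without a block, and 100% and 95% with it, with 1 false call among 186 and 14 among 209. The changed genes were drawn only from genes with higher mean values, the spread was fixed in advance, and no library was made unlike the rest. These shares therefore do not give the recovery to be had for the histone genes in the real libraries. Alternatives were animal as a random effect, fits to the contrast's own libraries, library totals as scaling, no filter or a filter of 20, pseudocounts of 0.5 and 5, and every fit without 1 animal or 1 library.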

Additional observations from a re-analysis of the deposited data

Results flagged for a closer look

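In 42 groups of 4 libraries checked for a library far from the others, 2 were flagged, and chance flags about 1 group in 20. H2AC20 in air at 5 days had its highest value, 456, in S1, while S2 to S4 had 169 to 213. H4C12 in smoke at recovery was 39.9 in S4, and listed at 0 in the other 3.

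Differences between times in which every animal moved one way at one time and the other way at the other, or which passed a test, were found for 2 genes. For H2AC20, smoke was higher in 4 of 4 animals at 1 day and at recovery and lower in 4 of 4 at 5 days. Its change in smoke effect was −0.94 from 1 day to 5 days (adjusted p = 0.428 with animal as a block) and 1.02 from 5 days to recovery (adjusted p = 0.0995 with the block), and neither passed. Leaving S1 air at 5 days out of the blocked fit, these were −0.60 (adjusted p = 0.342) and 0.69 (adjusted p = 0.0698). For H2BC5 the change from 5 days to recovery was 0.80 and passed with the block (adjusted p = 0.0221), and the change from 1 day to recovery was 0.37 and did not (adjusted p = 0.449).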

How the results depend on the processing

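Counts are of genes called among those tested, and no called direction was turned round. With the replicate block, the animals being the same in all groups, 1 gene was called for smoke against air at 5 days and 1 for the change from 5 days to recovery. Of all genes, 1.69% and 3.56% were called. Leaving S1 air at 5 days out of the blocked fit gave the same counts of 1, where 6.26% and 11.3% of all genes passed. With the block and without S1, 1 was called for the change from 5 days to recovery and 1, H2AC20, for smoke between 5 days and recovery. Of all 14062 genes, 768 were called higher and 773 lower for the first, and 1584 and 1556 for the second. As a random effect, animal gave 1 at 5 days, 1 for the change from 5 days to recovery and 1 for air between 1 and 5 days. Of all 14062 genes, it called 103 higher and 76 lower at 5 days. For the change it called 161 and 244, and for air 1257 and 1326. With only the libraries of a contrast and the block there was 1 at 1 day (H1-4) and 1 at recovery (H2BC5), each higher in smoke. Of all 14062 genes, that fit called 597 higher and 684 lower at 1 day, and 1256 and 1394 at recovery. H1-4 passed the minimum largely through 1-day smoke, so its call there is partly built in. For air between 5 days and recovery the count of 4 became 0 with only the libraries of the contrast, with or without the block, where fewer libraries estimate the spread, and 2 with library totals as scaling. Over all genes, the contrast's own libraries gave 12 higher and 4 lower, or 3 and 1 with the block. Library totals gave 917 higher and 568 lower. Leaving out an animal or library without a block gave 1 to 4 genes there, 0 to 1 for the change from 5 days to recovery and for air between 1 and 5 days, and 0 elsewhere. For air between 5 days and recovery, these fits called from 161 higher and 135 lower genes (without S4) to 1262 and 1206 (without S3 air at 5 days). The log2 ratio of summed levels, smoke over air, was −0.0191 at 1 day, −0.536 at 5 days (−0.313 without S1, a variant chosen after seeing the data) and 0.268 at recovery, and moved with library totals by less than the spread between animals. A planned variant with fewer genes in the set was not run. The causes were not tested. The limits are 4 animals a group, values near 0 for most of these genes, reads divided between near-identical copies, and a selection for poly-A tails, so levels of the untailed messages were not measured.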
